A study of Mus musculus with 8 samples.

Results

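Clade B serpins are the intracellular branch of the serpin family of protease inhibitors. The genes described here are *Serpinb9b*, *Serpinb9*, *Serpinb8*, *Serpinb6a*, *Serpinb6b* and *Serpinb1a*, 6 of the 55414 genes listed, which were picked by symbol out of 28 clade B serpins. They were chosen because *Serpinb9b* rose so far in CypD KO cells, so the CypD KO and WT values below are a description and carry no test. On the values used here *Serpinb9b* had the second-largest rise among protein-coding genes, with a log2 difference of 5.38, just ahead of *Ddit3*, a stress-induced transcription factor, at 5.35. Expression was measured by RNA-seq in B16F10 cells, a mouse melanoma line, in 4 groups of 2 libraries. WT B16F10 cells and CypD KO cells were kept for 24 h at 21% oxygen. Control cells, stably transfected with pcDNA alone, and CypD OE cells, a stable line overexpressing *Ppif* by its label, were kept for 24 h at 1% oxygen. *Ppif* encodes CypD (cyclophilin D), a protein of the mitochondrial matrix that helps the permeability transition pore to open. The study made CypD KO cells by CRISPR/Cas9 with puromycin selection of clones, and the 1% oxygen lines by selection after transfection, whereas the WT cells are labelled wild-type only. How many clones made up each line is not stated in the sources used here. Oxygen, vector and selection therefore cannot be told apart between the 21% and the 1% oxygen groups, nor can editing and clone selection between CypD KO and WT. CypD OE and Control are likewise separately selected lines, so overexpression cannot be told apart from other differences between these lines.

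Values are TPM, transcript abundances scaled for transcript length and for the total of a library. *Ppif* was at 50.68 and 49.99 TPM in WT, 10.44 and 12.11 TPM in CypD KO, 44.59 and 42.25 TPM in Control, and 50.29 and 49.28 TPM in CypD OE. It was thus low in CypD KO, and the difference between the libraries labelled CypD OE and those of Control, 0.19 on the log2 scale, did not pass the test (limma adjusted p = 0.0794). The 7 melanocyte markers examined, among them *Tyrp1*, *Dct*, *Pmel* and *Mlana*, were all detected and together made up 12400 to 21000 TPM per library. Their sum differed between groups. It was 15700 to 15800 TPM in WT, 12400 to 12600 in CypD KO, 20400 to 21000 in Control and 13600 to 13800 in CypD OE. From the steps between low values, 1 fragment on a transcript of 1000 effective bases was worth 0.082 to 0.0975 TPM. Replicates are separate libraries, but whether they came from separate cultures is not stated in the sources used here, so errors may be technical.

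A serpin presents a flexible stretch, the reactive centre loop, to its target protease as bait. The protease cuts the loop, the serpin snaps into a new fold, and the protease is left trapped in a dead complex, so the loop sequence sets which proteases are bound. Clade B members lack a classical signal peptide and act mostly inside the cell, where they guard against proteases released from granules or lysosomes. In tumour cells the family is known for inhibitors of the granzymes, the serine proteases that cytotoxic lymphocytes deliver into target cells.

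*Serpinb9* encodes the granzyme B inhibitor of this group. *Serpinb9b* is a neighbouring paralog known as an inhibitor of granzyme M. *Serpinb6a* and *Serpinb6b* form a second paralog pair, and the former is known to block cathepsin G and trypsin-like proteases. *Serpinb8* is known as an inhibitor of furin, the processing protease of the secretory pathway, and *Serpinb1a* as an inhibitor of neutrophil elastase. The stretch of the coding sequence in which the members differ in this respect is shown first. Each line holds 45 coding bases (15 codons), counted from the conserved hinge of the loop. The last codon, in capitals, lies at the same count in every member and was not checked against a known cleavage site. From the hinge to the end *Serpinb9b* has 52 codons and *Serpinb9* has 49, so this count need not reach the cleavage site of each. The sequences were read from GENCODE transcripts (GRCm39).
Serpinb9b: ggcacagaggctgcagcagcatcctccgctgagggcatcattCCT
Serpinb9: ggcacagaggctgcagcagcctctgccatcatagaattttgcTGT
Serpinb6a: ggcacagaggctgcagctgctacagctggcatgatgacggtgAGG
Serpinb6b: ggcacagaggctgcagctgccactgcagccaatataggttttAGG
Serpinb8: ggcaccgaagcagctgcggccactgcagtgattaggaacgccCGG

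*Serpinb9* and *Serpinb9b* shared 86.5% of 1122 aligned coding bases and 27 of the 45 loop bases (60.0%). Loop bases were compared position by position without gaps, whereas coding sequences were aligned with gaps. An offset of codons in the loop therefore lowers the loop figure, and the measures are not alike. *Serpinb6a* and *Serpinb6b* shared 86.4% of their coding bases and 33 of 45 in the loop (73.3%). Among the remaining pairs of members, coding identity was 59.8% to 69.1%. The relatives next closest to *Serpinb9b* were *Serpinb9f*, at 80.0%, down to *Serpinb9e*, at 79.0%. Reads of near-identical genes can be divided between them by the authors' estimation. Of the windows of 50 bases along the transcripts, 0.5% in *Serpinb9b*, 0.4% in *Serpinb9*, 3.6% in *Serpinb6a*, 3.1% in *Serpinb6b* and 0.2% in *Serpinb8* were also present in a transcript of another gene.

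In CypD KO cells all 5 members with enough expression to be analysed lay above WT, and *Serpinb9b* went from one of the lowest members to the second most abundant. *Serpinb9b* (ENSMUSG00000021403, chromosome 13:33211399-33225867, plus strand, GRCm39) had 0.47 and 1.26 TPM in WT and 75.34 and 74.38 TPM in CypD KO. Its group means were 0.865 ± 0.559 TPM and 74.9 ± 0.679 TPM (SD, n = 2), a ratio of 86.5. Behind these values stood about 16 and 39.5 fragments in WT and about 2680 and 2480 in CypD KO. The WT baseline was therefore the poorly measured side of the ratio, which was 59.4 without WT replicate 1 and 159 without WT replicate 2. The log2 difference of TPM + 1 was 5.07 to 5.69 when a WT or CypD KO library was left out.

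*Serpinb8* (ENSMUSG00000026315), which lies apart from the others on chromosome 1:107517700-107539280, had 0.90 and 1.17 TPM in WT and 24.07 and 22.5 TPM in CypD KO. Its log2 difference was 3.58, and the ratio of the means was 22.5. *Serpinb9* (ENSMUSG00000045827, chromosome 13:33187233-33201940) had 0.93 and 0.82 TPM in WT and 10.0 and 9.09 TPM in CypD KO, a log2 difference of 2.49. The transcript level of the granzyme B inhibitor was thus 10.9 times higher in CypD KO than in WT, and 10.3 to 11.6 times with 1 WT library left out. *Serpinb6a* (ENSMUSG00000060147, chromosome 13:34100229-34186812, minus strand) started from the highest level, 65.86 and 61.82 TPM in WT, and reached 156.7 and 157.5 TPM in CypD KO. This was the smallest log2 difference, 1.29, but the largest gain in TPM, from a mean of 63.8 ± 2.86 to 157.0 ± 0.566 (SD, n = 2).

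*Serpinb6b* (ENSMUSG00000042842, chromosome 13:33073279-33163050) had 1.60 and 0.26 TPM in WT and 3.99 and 4.10 TPM in CypD KO. Its log2 difference of 1.48 was 0.96 with WT replicate 2 left out and 2.0 with WT replicate 1 left out. *Serpinb1a* (ENSMUSG00000044734, chromosome 13:33026042-33035224) was at 0.05 TPM in 1 WT and 1 CypD KO library, about 1 fragment each, and listed at 0 in the other 6. It was too low to be compared, and at this depth its absence from the cells cannot be stated.

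Both CypD KO libraries lay above both WT libraries for 5 of the 5 members that passed the filter of 1 TPM in at least 2 libraries, as they did for 44.4% of the 13526 genes that passed it. Nothing is read from this count, since the same comparison chose the members. *Serpinb6b* reached 1 TPM in both CypD KO libraries and 1 WT library, so it passed only through the group where it was high. The median log2 difference was 2.49 over these 5 members and 0.09 over all genes that passed, of which 8% exceeded 1. By log2 difference among protein-coding genes, *Serpinb8* ranked 15, *Serpinb9* 72, *Serpinb6b* 399 and *Serpinb6a* 546.

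**Figure D1:**
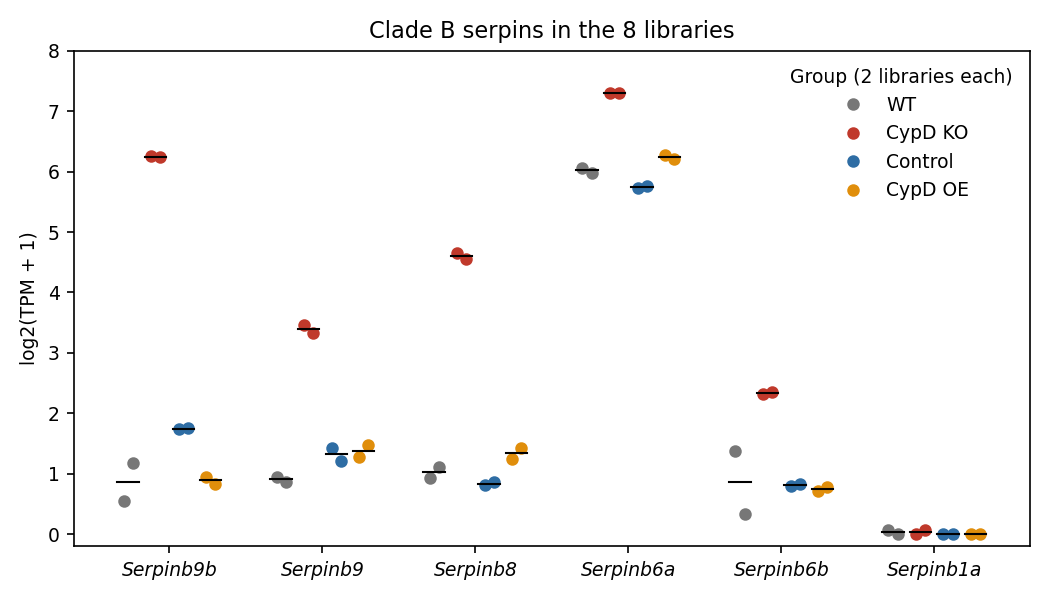
Expression of the 6 members as log2(TPM + 1) in the 8 libraries. Points are libraries, coloured by group, and black lines are the means of 2 libraries. Both CypD KO libraries lie above the other 6 for 5 members, *Serpinb9b* goes from 0.865 TPM in WT to 74.9 TPM in CypD KO, and *Serpinb1a* stays at or near 0 throughout.

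The clade as a whole changed composition as well as amount. Summed over its 28 listed genes, clade B transcripts came to 69.9 and 65.3 TPM in WT, 274 and 271 TPM in CypD KO, 57.6 and 59.0 TPM in Control, and 80.8 and 78.2 TPM in CypD OE. *Serpinb6a* supplied 94.2% and 94.6% of the total in WT, 90.0% and 90.5% in Control, and 94.6% and 93.6% in CypD OE. In CypD KO its part was 57.2% and 58.2%, although its own level was highest there.

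*Serpinb9b* supplied 27.5% of the clade B total in each CypD KO library, against 0.672% and 1.93% in WT. *Serpinb8* supplied 8.79% and 8.31% in CypD KO. Outside CypD KO the highest contribution of *Serpinb9b* was in Control, at 4.03% and 4.0%, and CypD OE had 1.15% and 0.998%. These shares compare levels per transcript length within a library, so a change of 1 gene changes the share of the others.

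**Figure D2:**
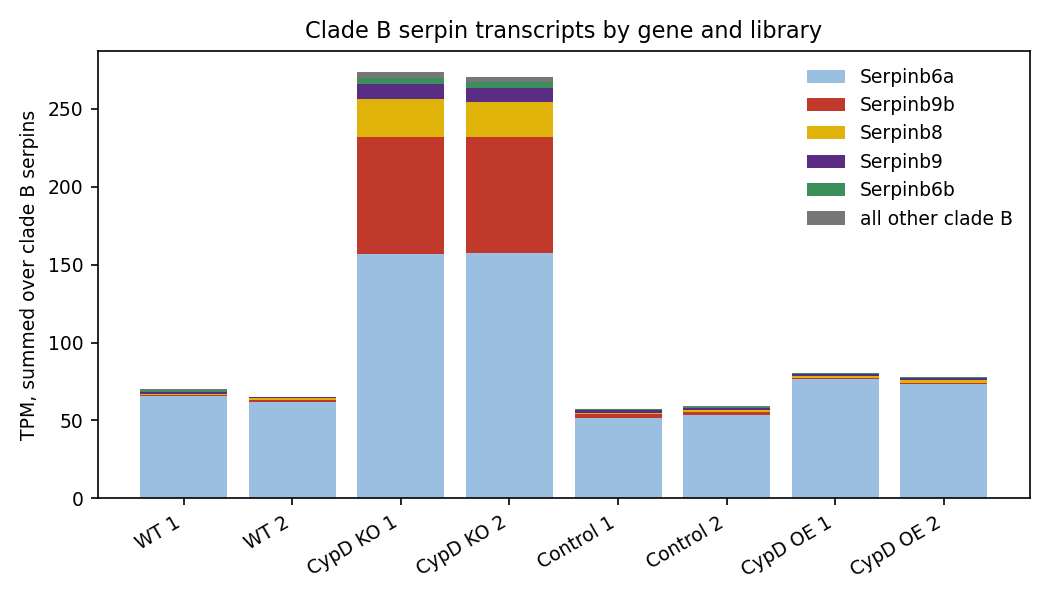
TPM summed over the 28 clade B serpins in each library, stacked by gene. The 2 CypD KO bars reach 274 and 271 TPM, with *Serpinb9b* making up 27.5% of each, and the other 6 bars, between 57.6 and 80.8 TPM, consist almost wholly of *Serpinb6a*.

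The other 22 clade B serpins were nearly silent. Of these, 14 were listed at 0 in all 8 libraries, and 7 were above 0 but below 1 TPM, up to 0.78 TPM for *Serpinb2*, the plasminogen activator inhibitor of macrophages. These 7 had values above 0 only in CypD KO libraries. Such values rest on few fragments, and for 6 of the 7 on 1 library.

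*Serpinb1c*, from the same chromosome 13 cluster, was the single non-member to reach 1 TPM. It had 0.12 and 0.00 TPM in WT, 2.56 and 1.98 TPM in CypD KO, 0.25 and 0.35 TPM in Control, and was listed at 0 in both CypD OE libraries. It was highest in CypD KO, with a log2 difference from WT of 1.62, and it too passed the filter only through those libraries. In CypD OE against Control its log2 fold change was -0.38 ± 0.19 (SE), which did not pass the test (limma adjusted p = 0.163).

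The rule that chose the members did not use the values of CypD OE against Control at 1% oxygen, so this comparison was tested. The members were nevertheless chosen with earlier results of these data known, and the spread in the fit comes from all 8 libraries. Here *Serpinb9b* was lower in CypD OE, *Serpinb6a* and *Serpinb8* were higher, and *Serpinb9* and *Serpinb6b* did not pass the test. By limma on log2(TPM + 1), with Benjamini-Hochberg adjustment over all 13526 genes, 2 of the 5 members tested rose and 1 fell. Among all genes 19% rose and 18.3% fell, so calls in either direction were common in the whole table. The median log2 fold change was 0.06 over the 5 members and 0.00 over all genes.

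*Serpinb9b* had 2.32 and 2.36 TPM in Control and 0.93 and 0.78 TPM in CypD OE. The groups did not overlap, and about 72.5 and 79.7 fragments stood against about 33.8 and 29.0. The mean fell from 2.34 ± 0.0283 to 0.855 ± 0.106 TPM (SD, n = 2), so that CypD OE held 36.5% of the Control level. The log2 fold change was -0.85 ± 0.20 (SE; 95% interval -1.32 to -0.38; limma adjusted p = 0.0149). Leaving out any 1 of the Control or CypD OE libraries gave a log2 fold change of -0.91 to -0.79, and the call was lost each time. The spread used for the test comes from all 8 libraries. It includes WT, at 0.47 and 1.26 TPM, where *Serpinb9b* differed most between replicates on the log2(TPM + 1) scale.

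*Serpinb6a* had 51.81 and 53.36 TPM in Control and 76.39 and 73.22 TPM in CypD OE, from about 1600 to 2750 fragments per library. The CypD OE libraries were both higher, by 1.42 times on the means. Its log2 fold change of 0.50 ± 0.05 (SE; 95% interval 0.39 to 0.61; limma adjusted p = 0.0003) was past the threshold under all 15 alternative settings tried. This abundant member thus moved the other way from *Serpinb9b* in the 1% oxygen cells, whereas both were higher in CypD KO than in WT.

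*Serpinb8* had 0.76 and 0.81 TPM in Control and 1.38 and 1.68 TPM in CypD OE, again without overlap, a ratio of 1.95. The log2 fold change was 0.50 ± 0.14 (SE; 95% interval 0.18 to 0.82; limma adjusted p = 0.0261). The call was lost without Control replicate 1, Control replicate 2 or CypD OE replicate 2, with an adjusted p of 0.0742 to 0.119. It was also lost without the filter on low values, at an adjusted p of 0.0789, and in a fit of the 4 libraries alone, at 0.0629.

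*Serpinb9* had 1.7 and 1.3 TPM in Control and 1.41 and 1.79 TPM in CypD OE, and the groups overlapped. Its log2 fold change was 0.06 ± 0.15 (SE; 95% interval -0.30 to 0.42; limma adjusted p = 0.806). *Serpinb6b* had 0.73 and 0.77 TPM in Control against 0.64 and 0.72 TPM in CypD OE. The CypD OE values were both a little lower, but the log2 fold change of -0.06 had a wide 95% interval, -0.82 to 0.70 (limma adjusted p = 0.909). The spread used for this interval comes from all 8 libraries, including the 2 WT libraries, where *Serpinb6b* differed most between replicates.

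**Figure D3:**
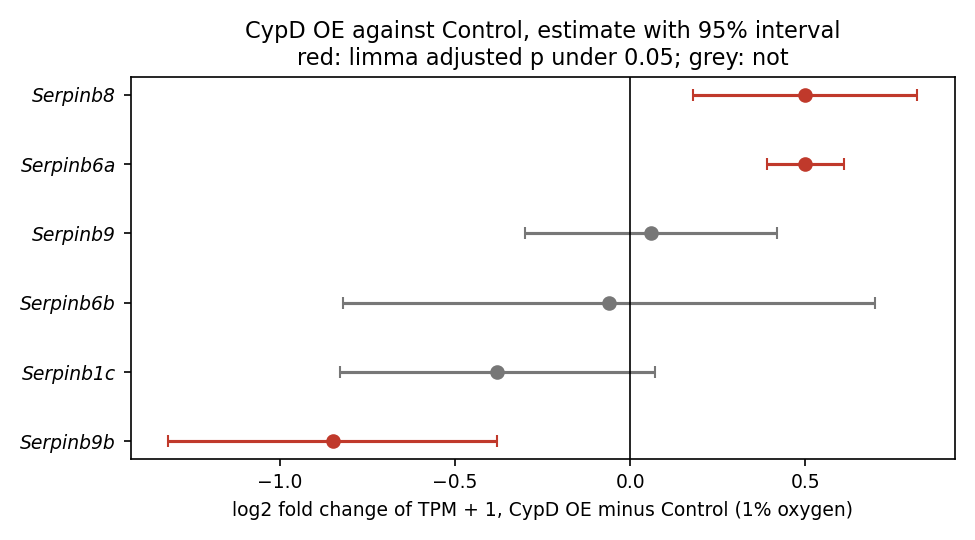
Log2 fold change of TPM + 1 in CypD OE against Control for the 6 clade B serpins tested. Points are estimates, bars 95% intervals from the limma fit, and red marks an adjusted p under 0.05. *Serpinb9b* lies at -0.85, *Serpinb6a* and *Serpinb8* at 0.50, and the intervals of *Serpinb9*, *Serpinb6b* and *Serpinb1c* include 0.

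Across all 4 groups, CypD KO was highest for all 5 members, and the order of the other 3 groups differed from gene to gene. In both CypD KO libraries the 5 members lay above all 6 other libraries, which was also so for 26.6% of the genes tested. Nothing is read from this count either, since the CypD KO values were used to choose the members. For *Serpinb9b* the order below CypD KO was Control at 2.34 TPM, then WT at 0.865 and CypD OE at 0.855 TPM. WT and CypD OE overlapped and cannot be ordered, while both Control libraries were above all 4 of them. Relative to WT, the log2 difference was 0.87 in Control and 0.02 in CypD OE.

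For *Serpinb9* the order was CypD OE at 1.6 ± 0.269, Control at 1.5 ± 0.283 and WT at 0.875 ± 0.0778 TPM (SD, n = 2). Both 1% oxygen groups lay above WT, by 0.47 and 0.41 on the log2 scale, and overlapped each other. For *Serpinb6a* the order was CypD OE at 74.8, WT at 63.8 and Control at 52.6 TPM, with no overlap between neighbours. For *Serpinb8* it was CypD OE at 1.53 ± 0.212, WT at 1.03 ± 0.191 and Control at 0.785 ± 0.0354 TPM, also without overlap. WT therefore lay between the 1% oxygen groups for *Serpinb6a* and *Serpinb8*, and with CypD OE for *Serpinb9b*. For *Serpinb6b* the 2 WT libraries lay on either side of all 4 libraries from 1% oxygen, so that no order could be given below CypD KO. The differences between the 21% and 1% oxygen groups were not tested.

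The genes whose pattern over the 8 libraries was most like that of *Serpinb9b* were *Fbxo25*, a ubiquitin ligase subunit, *Dusp14*, a protein phosphatase, *Cd44*, the hyaluronan receptor, *Arl6ip5* and *Zfp697*. Their Pearson correlations with *Serpinb9b* over log2(TPM + 1) were 0.9992, 0.998, 0.9976, 0.9971 and 0.9966. The 8 libraries fall into CypD KO and the rest, so r mostly reflects that one step. A value over 0.9 was reached by 1230 of 13525 genes and one over 0.99 by 48.

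*Fbxo25* had 10.62 and 11.53 TPM in WT, 25.47 and 25.28 TPM in CypD KO, 12.49 and 12.54 TPM in Control, and 10.93 and 10.50 TPM in CypD OE. It shared with *Serpinb9b* the step up in CypD KO and the order of Control above WT and CypD OE. *Dusp14* had 2.52 and 3.19 TPM in WT, 17.71 and 18.87 TPM in CypD KO, 4.64 and 4.20 TPM in Control, and 3.06 and 3.02 TPM in CypD OE. Its values in WT and CypD OE overlapped below those of Control. Both genes were picked for likeness over these same libraries, so nothing is read from the shared pattern. The members themselves came further down, with *Serpinb9* at r = 0.974 (rank 266), *Serpinb8* at 0.965 (rank 373), *Serpinb6a* at 0.895 (rank 1292) and *Serpinb6b* at 0.889 (rank 1360). The paralog next door thus had the highest r of the members, though close to that of *Serpinb8*. Relative to WT, both genes were higher in Control, by 0.41 for *Serpinb9* and 0.87 for *Serpinb9b* on the log2 scale. In CypD OE against Control the log2 fold change was 0.06 for *Serpinb9*, against -0.85 for *Serpinb9b*. The difference between these genes was not tested.

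The cluster on chromosome 13 holds 5 of the 6 members. Within 1 Mb on either side of the start of *Serpinb9b*, 51 genes were listed and 9 were tested, of which 4 were not clade B serpins. *Wrnip1*, a partner of the Werner helicase at the far end of the cluster, had a log2 difference of 0.15 in CypD KO against WT. *Ripk1*, a kinase of death receptor signalling, had 0.47, *Nqo2*, a quinone reductase, 0.83, and the long non-coding RNA *1110046J04Rik* 1.31. All 4 were higher in both CypD KO libraries than in WT, as were 44.4% of all genes tested, and their median was 0.65 against 0.09 over all genes. They lay below the 5.38 of *Serpinb9b* and the 2.49 of *Serpinb9*. However, *1110046J04Rik* at 1.31 was level with the 1.29 of *Serpinb6a* and near the 1.48 of *Serpinb6b*. *1110046J04Rik* passed the filter only through the CypD KO libraries, at 2.71 and 2.80 TPM, so nothing is read from its place above WT.

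In CypD OE against Control, *Ripk1* rose by 0.38 ± 0.07 (SE; limma adjusted p = 0.0061) and *1110046J04Rik* by 0.56 ± 0.18 (limma adjusted p = 0.0469). The latter was low in both groups, at 0.11 and 0.10 TPM in Control and 0.67 and 0.60 TPM in CypD OE. *Wrnip1* (0.22, adjusted p = 0.0698) and *Nqo2* (0.15, adjusted p = 0.254) did not pass the test. The annotated span of *Serpinb6a*, on the minus strand, overlaps *1110046J04Rik*, *Nqo2* and the first part of *Ripk1*, all on the plus strand. Whether strand was used in estimating expression is not given in the sources used here, so reads in the overlaps may have been assigned to either gene. The spans of *Serpinb6b* (plus strand) and *Serpinb1c* (minus strand) overlap in the same way. *Serpinb9*, whose start lies at -24.2 kb from that of *Serpinb9b*, overlaps neither it nor these genes.

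**Figure D4:**
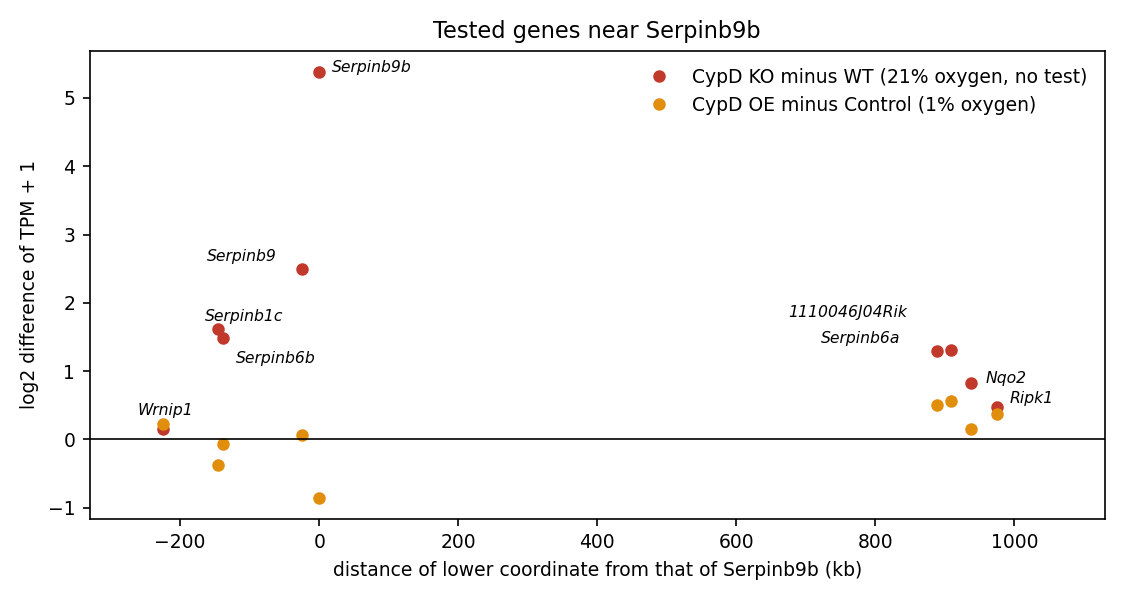
Log2 difference of TPM + 1 for the 9 tested genes within 1 Mb of *Serpinb9b*, against the distance of each gene's lower coordinate from that of *Serpinb9b* in kb. Red points are CypD KO minus WT (no test) and orange points CypD OE minus Control. *Serpinb9b* stands at 5.38 and -0.85, and the 4 genes that are not serpins lie between 0.15 and 1.31 in CypD KO.

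The sequence just upstream of *Serpinb9b* is shown because this gene and its paralog *Serpinb9* lie side by side and were both highest in CypD KO. These 250 bases, at chr13:33211147-33211396 on the plus strand of GRCm39, precede the transcription start given by RefSeq. Capitals mark the longest run shared with the same region of *Serpinb9*, 13 bases at -64 to -52 from the start of *Serpinb9b* and at -60 to -48 from that of *Serpinb9*.
Serpinb9b upstream: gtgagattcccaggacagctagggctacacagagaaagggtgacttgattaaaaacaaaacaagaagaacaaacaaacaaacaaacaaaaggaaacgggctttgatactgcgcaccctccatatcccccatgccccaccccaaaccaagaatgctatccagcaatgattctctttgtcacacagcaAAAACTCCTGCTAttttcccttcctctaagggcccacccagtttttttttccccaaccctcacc

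The upstream regions of *Serpinb9b* and *Serpinb9* were identical at 68.1% of 226 aligned bases, less than their coding sequences. The region of *Serpinb9b* was 46.0% GC with 2 CpG dinucleotides, against medians of 52.4% and 6 over the 32851 promoters in the RefSeq table. Of the motifs searched on both strands, it held none. *Serpinb9* had GAAANNGAA, the core bound by interferon regulatory factors, at -45 to -37, which 7.1% of all promoters hold. *Serpinb8* had TGANTCA, the AP-1 site, at -23 to -17, held by 6.7%. ACGTG or GCGTG, the core of the hypoxia response element, was present in 38.6% of all promoters and among the members only at the upstream start of *Serpinb6a*, at -10 to -6. That same region held GAAANNGAA and the TEAD core GGAATG, the latter found in 12.6% of promoters. CCAAT, in 33.8% of promoters, occurred at a second start of *Serpinb6a*, and TATAAA, in 12.4%, at no member. *Serpinb6b* held none of the 6 motifs. These matches describe letters in a window and were not tested as binding sites.

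The proteases that these serpins are known to meet were mostly not expressed by the melanoma cells. Of 19 serine proteases listed as possible targets, 12 were at 0 in all 8 libraries, among them *Gzmb*, *Gzma*, *Elane* and *Ctsg*, and 3 could be tested. *Gzmm*, which encodes granzyme M, was at 0.15 to 1.03 TPM and not tested. *Furin*, the protease of *Serpinb8*, had means of 13.5 TPM in WT, 42.2 in CypD KO, 14.0 in Control and 18.1 in CypD OE, a log2 fold change in CypD OE of 0.34 that did not pass the test (limma adjusted p = 0.0676). *Plat* and *Plau*, the tissue and urokinase plasminogen activators, fell in CypD OE, by 1.83 (limma adjusted p = 0.000141) and by 0.66 (limma adjusted p = 0.0336) on the log2 scale. All 3 were higher in both CypD KO libraries than in both WT libraries, against 44.4% of all genes.

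The lysosomal cathepsins and the caspases are other proteases that clade B serpins can meet inside cells. Of 21 listed, 2 stayed under 1 TPM in every library and 19 were tested. In CypD OE 3 of the 19 rose and 7 fell, against 19% and 18.3% of all genes, with a median of -0.02. The 4 most abundant fell: *Ctsd* by 0.76, *Ctsz* by 0.85, *Ctsb* by 0.66 and *Ctsa* by 0.65 on the log2 scale (limma adjusted p of 2.2e-05 to 5.49e-05). *Ctsb*, encoding cathepsin B, was also higher in CypD KO, with a log2 difference from WT of 1.87. In CypD KO, 12 of the 19 lay above WT, against 44.4% of all genes, and 4 below. *Casp12*, *Ctsk*, *Casp4* and *Ctsf*, all among the 12, passed the filter only through the CypD KO libraries, so nothing is read from this count. *Casp1*, among the 3 that rose in CypD OE, passed only through the CypD OE libraries.

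Serpins of other clades act mostly outside the cell. Of 35 listed, 23 were at 0 throughout and 6 were tested, of which 2 rose and 2 fell in CypD OE, against 19% and 18.3% of all genes. *Serpinh1*, the collagen chaperone, fell by 0.72 (limma adjusted p = 8.26e-06) and *Agt*, angiotensinogen, by 1.02 (limma adjusted p = 0.00317). *Serpinf1* was at -0.04 (limma adjusted p = 0.872). In CypD KO, *Serpinh1* had a mean of 513 TPM against 503 TPM in WT.

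Of 19 genes for granule killing, antigen presentation and death receptor signalling, 13 were tested, of which 4 rose and 4 fell in CypD OE, against 19% and 18.3% of all genes, with a median of 0.00. *Cflar*, an inhibitor of death receptor signalling, fell by 0.60 (limma adjusted p = 0.00114). *M6pr* and *Igf2r*, the mannose 6-phosphate receptors, rose by 0.13 (limma adjusted p = 0.0164) and 0.15 (limma adjusted p = 0.0432). *B2m*, the light chain of MHC class I, was at 0.00 (limma adjusted p = 0.987). The class I heavy chain genes *H2-D1* and *H2-K1*, similar copies that may share reads, both fell. Their log2 fold changes were -0.61 (limma adjusted p = 0.00177) and -1.89 (limma adjusted p = 0.00884). *Bid*, from the same list, rose by 0.90 (limma adjusted p = 0.000925). In CypD KO 12 of the 13 lay above WT and 1 below, against 44.4% of all genes above. *Tap1*, among the 12, passed the filter only through the CypD KO libraries, so nothing is read from this count. The median log2 difference, which includes *Tap1*, was 0.68 against 0.09 over all genes. *B2m* had means of 965 TPM in CypD KO against 292 TPM in WT. *H2-D1* and *H2-K1* were higher in CypD KO than in WT by 1.15 and 1.95 on the log2 scale. *Prf1*, encoding perforin, and *Srgn*, encoding the granule proteoglycan serglycin, were listed at 0 in all libraries.

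Markers of other cell types were examined because leukocytes and fibroblasts also express clade B serpins. Of 13 leukocyte markers, 9 were at 0 in all 8 libraries, among them *Cd3e* and *Nkg7*, and *Ptprc*, the pan-leukocyte marker, reached at most 0.02 TPM. Their sum was 0.22 to 0.73 TPM in WT, 1.93 to 2.33 in CypD KO, 0.09 to 0.48 in Control and 0.02 to 0.07 in CypD OE, and *Lyz2*, at up to 1.85 TPM, made up most of it in CypD KO. The 8 fibroblast markers summed to 17.3 to 19.9 TPM in WT, 75.3 to 75.7 in CypD KO, 21.7 to 24.3 in Control and 10.0 to 11.6 in CypD OE. The fibroblast sum thus moved with *Serpinb9b* in both comparisons. The leukocyte sum was higher in CypD KO than in WT, but at 1% oxygen it was at most 0.48 TPM, near the floor. *Lyz2*, the only leukocyte marker tested, passed the filter only through CypD KO. Its log2 fold change in CypD OE against Control, -0.30, did not pass the test (limma adjusted p = 0.389). The fibroblast markers *Dcn* and *Thy1* were at 0 in all libraries and *Lum* was at most 0.08 TPM. *Col1a1* and *Postn* were higher in CypD KO than in WT by 3.80 and 1.91 on the log2 scale and *Col1a2* was lower by 1.79, while in CypD OE against Control all 3 fell. The part of these genes in the values of *Serpinb9b* was not tested.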

How the data were processed

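Total RNA libraries depleted of ribosomal RNA were sequenced by the authors, and the submitters' processing notes name Cutadapt 3.4, STAR 2.7.8a, RSEM 1.3.1, DESeq2 1.26.0 and GRCm39. TPM was the unit deposited: the authors' estimates share a fixed sum in every library, so that a rise of abundant transcripts lowers all others. Read counts were not used here. Groups came from the labels, and 0 columns were without a sample. Replicate numbers came from the suffix of library names.

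The fit, in R 4.3.3 with limma 3.58.1 (lmFit, eBayes with trend, 4 group means), took log2(TPM + 1) of genes reaching 1 TPM in 2 or more of 8 libraries. Tests were two-sided, adjusted by Benjamini-Hochberg over 13526 genes, with a threshold of 0.05, and were given for CypD OE against Control only. Fold changes on this scale understate changes of low genes. An exact permutation test of 2 against 2 libraries cannot go below p = 0.333. The fit was tested on simulated data for this comparison (13526 genes), where it recovered 77.5% of 200 genes given a log2 change of 1, with 3 false calls.

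Members and gene lists were chosen with earlier results of these data known. Named genes were all members, clade B serpins reaching 1 TPM, up to 4 of the highest genes of each list, tested neighbours of *Serpinb9b*, and the 5 genes most correlated with it, except that some genes are not reported here. *Gzmb*, *Gzma*, *Elane*, *Ctsg*, *Prf1*, *Srgn*, *H2-D1*, *H2-K1*, *Cd3e*, *Nkg7*, *Dcn*, *Thy1*, *Lum*, *Serpinb2* and *Ddit3* were named after their values were seen. The same holds for *Bid*, *Tap1*, *Casp1*, *Casp4*, *Casp12*, *Ctsf* and *Ctsk*. Depth was estimated by placing low TPM of transcripts of 600 to 3000 bases on whole fragments, with 83.4% to 86.3% of them lying no more than 0.15 from one (30% if spread evenly). Promoters were RefSeq sequences found at 1 place each in GRCm39, and 5 of 6 members had one. Alternatives were another pseudocount, filter, scaling, sample set and variance model, a replicate block, and leaving out each library.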

Additional observations from a re-analysis of the deposited data

How the results depend on the processing

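Each alternative changed 1 choice. In CypD OE against Control, *Serpinb9b* was called under 11 of 15 alternatives (limma adjusted p of 0.00227 to 0.0733), *Serpinb6a* under 15 of 15 (0.000213 to 0.00544) and *Serpinb8* under 10 of 15 (0.0113 to 0.119). *Serpinb8* kept a log2 fold change of 0.50 but lost its call without a filter on low TPM (adjusted p = 0.0789) and in the fit of the comparison's 4 libraries (0.0629). Leaving out 1 library gave -0.91 to -0.79 for *Serpinb9b*, 0.42 to 0.59 for *Serpinb8* and 0.47 to 0.53 for *Serpinb6a*. The range was -0.058 to 0.17 for *Serpinb9*, which turned negative without Control replicate 2 (-0.058) or CypD OE replicate 2 (-0.048) and was called under none, and -0.09 to -0.02 for *Serpinb6b*. With 1 library left in a group, that library is assumed to vary like the other groups. Counts of genes called then ranged from 1729 to 2519 higher and 1758 to 2440 lower.

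In CypD KO minus WT, a pseudocount of 0.1 in place of 1 gave log2 differences of 6.41 for *Serpinb9b*, 4.37 for *Serpinb8*, 3.31 for *Serpinb9* and 2.40 for *Serpinb6b*, and median-of-ratios rescaling gave 1.17 for *Serpinb6a*. The pseudocount adds less to the low WT values by its construction. Rescaling moved the median of all genes from 0.09 to -0.01. A filter of 5 TPM left *Serpinb6b* out, so it has no value there.

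The replicate block gave 2393 genes higher and 2342 lower, adjusted p of 0.0223 for *Serpinb9b*, 0.00108 for *Serpinb6a* and 0.0383 for *Serpinb8*, and changed no call among the members. Deviations of same-numbered libraries correlated at -0.00175 between CypD OE and Control and at 0.108 between CypD KO and WT, and the sources do not describe a pairing. Depth limits *Serpinb9b*, *Serpinb9*, *Serpinb8* and *Serpinb6b* outside CypD KO, where a library held at most about 90.3 fragments of any of them.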
